A study of Mus musculus with 6 samples.

Results

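The genes described here make ribosomes or belong to the RNA exosome, and their transcripts were compared between mouse embryonic stem (ES) cells with 1 working copy of Tex19.1 and cells with none. Members were set by a rule on gene symbols, which was made with earlier results of these data known. The rule takes every symbol of the authors' deposited table that starts with Utp, Nop or Nol followed by a digit, or with Exosc. It adds Ncl, Npm1, Fbl, Dkc1, Nhp2, Gar1, Imp3, Imp4, Bop1, Pes1 and Wdr12. This gave 45 of the 10128 genes in the table. A further 4 protein-coding genes of the mouse annotation whose symbols fit the rule (Exosc6, Nol3, Nol4 and Nop53) were not analysed here. The label fits 44 of the 45 by known function. Nol4l entered through its symbol and is given apart.

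The 3 Tex19.1+/- libraries and the 3 Tex19.1-/- libraries came from ES cells of the 129/Ola background that descend from the E14Tg2a line, at passages 12 to 18. All were grown in serum and leukaemia inhibitory factor on gelatin, and the controls also carry 1 disrupted allele. How many independent clones stand behind each genotype is not given in the sources used here, so the p-values measure the spread between these libraries, which may be technical. The deposited table holds 1 log2 fold change, 1 mean level and 1 p-value per gene, so values of single libraries and their depth were not analysed here.

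Ribosomes are built in the nucleolus. RNA polymerase I makes a long precursor of the ribosomal RNA (rRNA), small nucleolar ribonucleoproteins (snoRNPs) guide its methylation and pseudouridylation, and large assemblies of proteins fold and cut it into the RNAs of the small and the large subunit. The RNA exosome is a ring of inactive subunits with a cap and attached nucleases. It trims the end of 5.8S rRNA, degrades the spacers cut out of the precursor and removes many other nuclear RNAs. ES cells divide fast and have large nucleoli.

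Tex19.1 had the lowest log2 fold change of the authors' deposited table, -6.92, with a mean of 13.8 CPM (read counts scaled to library size), and the direction of all fold changes was read from it. Positive values below mean higher in Tex19.1-/- cells. All 8 listed ES cell markers were in the table, at means from 202 to 1566 CPM, of which 3 were higher and 3 lower. Of 6 primitive endoderm markers the table held 5, at 7.38 to 16.9 CPM, and all 5 were lower, with a median log2 fold change of -2.08. The 3 Y-linked genes of 4 listed that were in the table were lower by a median of -2.64, and of 6 fibroblast and feeder markers the table held Vim and Fbn1, both lower. These shifts run along the same 2 groups as the results below, and their part in those results was not tested.

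Transcripts for ribosome assembly and the exosome were slightly higher without Tex19.1. By the adjusted p of the authors' deposited table, with 0.05 as the threshold, 28 of the 45 members rose, 1 fell and 16 did not pass. Of all genes 25.2% were higher and 26.5% lower by the same rule, against 62.2% and 2.22% of the members. The median log2 fold change of the members was 0.12, a rise of 8.69%, against 0.00 over all genes, and 37 of 45 members lay above 0. No member changed by as much as 2-fold. At a size of at least 0.2 on the log2 scale 11 members rose, which is 24.4% of them, where 12.0% of all genes rose by that much. At an unadjusted p under 0.05 the counts were 29 higher and 2 lower, 64.4% and 4.44% of the members against 28.0% and 28.7% of all genes.

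**Figure D1:**
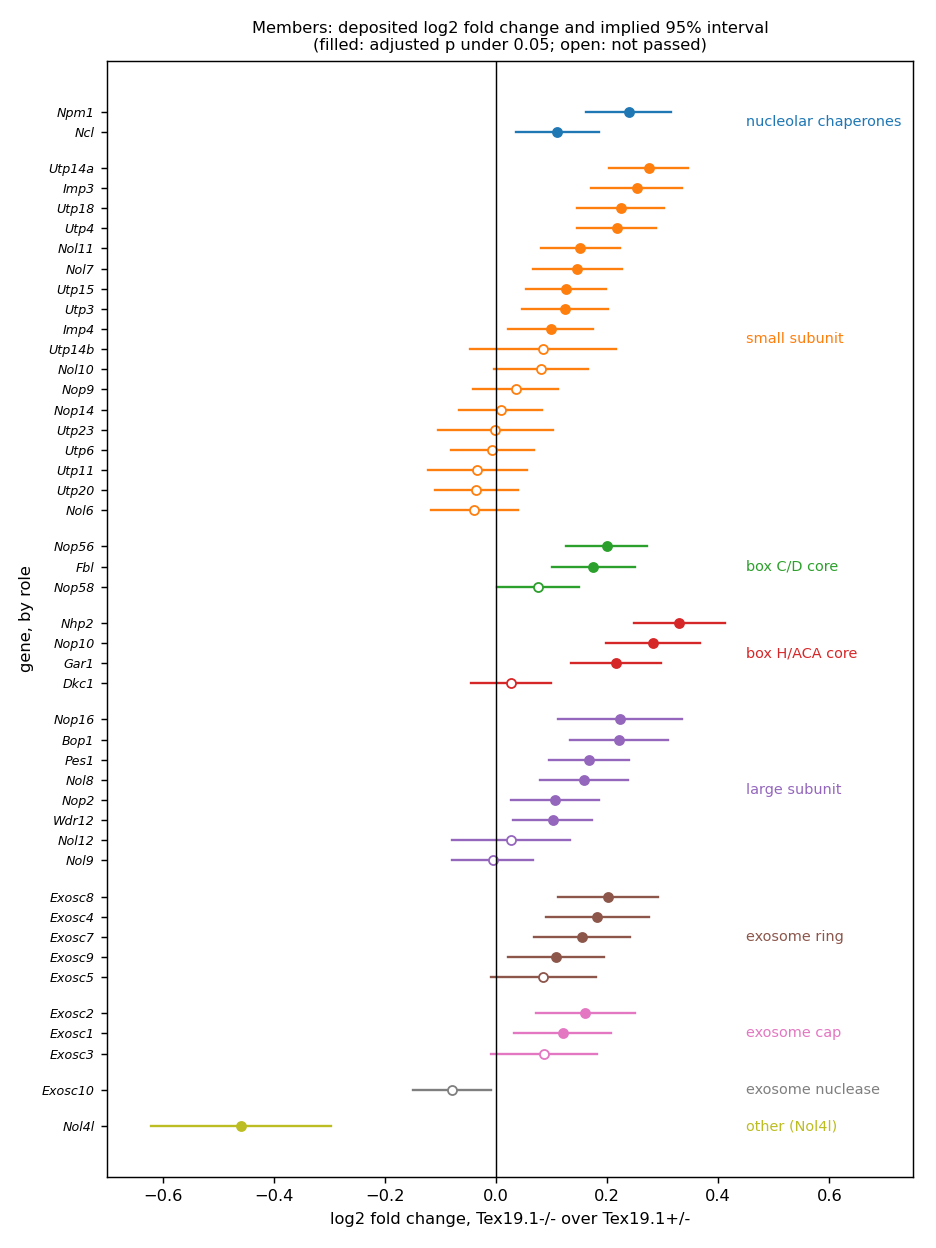
Deposited log2 fold change of each of the 45 members (x axis, Tex19.1-/- over Tex19.1+/-), by role, with the 95% interval that the deposited p-value implies; filled points passed an adjusted p of 0.05. The 28 filled points right of 0 reach from 0.10 (Imp4) to 0.33 (Nhp2), and the only filled point left of 0 is Nol4l.

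These are small changes, seen because the errors were smaller still. The standard error that the deposited p-value implies had a median of 0.04 over the members and ran from 0.04 for Exosc10 to 0.08 for Nol4l. The smallest rise that passed was that of Imp4 at 0.10, and the largest value that did not was that of Exosc3 at 0.09. Nop58 at 0.08 and Exosc10 at -0.08 had implied intervals that left out 0 (0.002 to 0.15 and -0.15 to -0.01) and missed the adjusted threshold. The members' fold changes had a standard deviation of 0.13 among themselves, or 0.10 without Nol4l, above the typical error of 1 gene. The members are well expressed, with a median of 86.0 CPM against 33.0 for all genes, and their lowest level was 6.24 CPM. Genes of like expression had a median log2 fold change of 0.02 around the members, and 35 of 45 members lay above the median of the genes closest to them in expression.

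**Figure D2:**
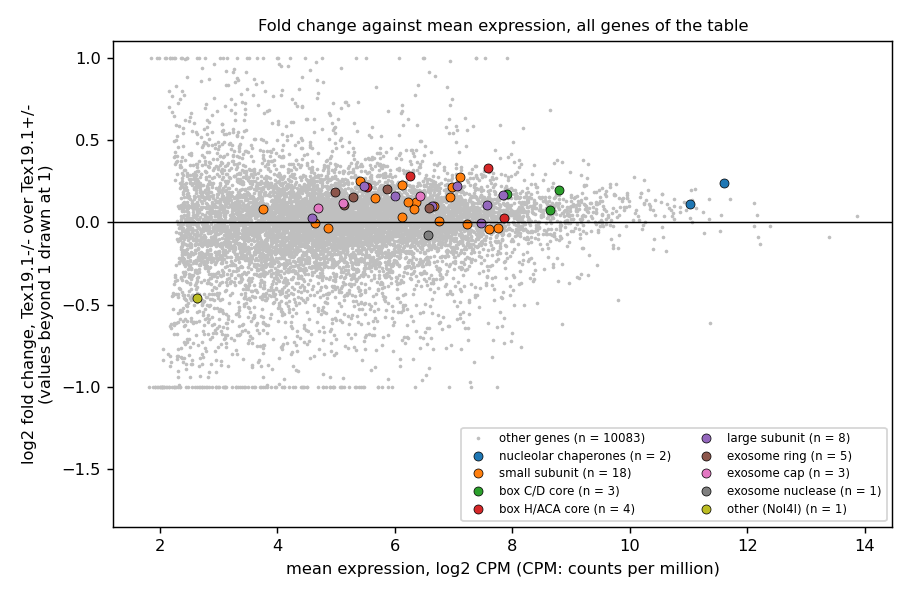
Deposited log2 fold change (y axis, values beyond 1 drawn at 1) against mean expression in log2 CPM (x axis) for the 45 members, coloured by role, and the other genes in grey. Most members sit in a narrow band between 0 and 0.3 at every level, with Ncl and Npm1 far to the right and Nol4l low on the left.

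Npm1 and Ncl encode the most abundant proteins of the nucleolus, a histone chaperone that travels with pre-ribosomes and an RNA-binding protein needed for rRNA transcription and early processing. Both rose. Per kilobase of coding sequence they were the 2 most abundant members, at 3536 CPM for Npm1 and 984 CPM for Ncl. The authors' deposited table puts Npm1 (chromosome 11, 33152287 to 33163206, GRCm38) at 0.24 (implied 95% interval 0.16 to 0.32, adjusted p = 6.96e-09). Ncl (chromosome 1, 86344719 to 86359400) was at 0.11 there (interval 0.04 to 0.18, adjusted p = 0.00926). Genes as abundant as these 2 had medians near 0.07, and with the median of genes of like expression subtracted Ncl stood at 0.04 and did not pass (adjusted p = 0.364), while Npm1 still passed. Reads of Npm1 may be shared with its processed pseudogenes.

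Small subunit assembly factors rose in part. The first precursor particle, the small subunit processome, is laid down on the nascent rRNA in modules, and 9 of its 18 members here rose while 9 did not pass. That is 50% higher and 0% lower, against 25.2% and 26.5% of all genes. None of the 18 fell by the authors' deposited edgeR test. None was lower at an unadjusted p under 0.05 either, where 28.7% of all genes were. Of the UtpA module, which binds the start of the precursor first, Utp4, Nol11 and Utp15 rose. The authors' deposited table has Utp4 at 0.22 (adjusted p = 1.67e-08), Nol11 at 0.15 (adjusted p = 0.000113) and Utp15 at 0.13 (adjusted p = 0.00174). Of its genes with other names, looked up after the values were seen, Wdr75 rose (0.16, adjusted p = 0.000238) and Heatr1 (0.08, adjusted p = 0.0884) and Wdr43 (0.07, adjusted p = 0.0988) did not pass in that table. The UtpB module was divided, with Utp18 at 0.22 (adjusted p = 8.97e-08) and Utp6 at -0.01 (adjusted p = 0.897) there. Imp3 and Imp4 bind the U3 snoRNA to the precursor; Imp3 rose by 0.25 (adjusted p = 8.59e-09) and Imp4 by 0.10 (adjusted p = 0.0246) in that table. The call for Imp4 was lost against genes of like expression (0.08, adjusted p = 0.0685) and with a trend on GC content and coding length subtracted (0.08, adjusted p = 0.0583).

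The highest value among processome factors was that of Utp14a, which drives the helicase that releases U3, at 0.27 in the authors' deposited table (interval 0.20 to 0.35, adjusted p = 4.26e-13). Its gene lies on the X chromosome, from 48256862 to 48282453. Utp14b, an autosomal retrogene copy of Utp14a on chromosome 1, stood at 0.08 (adjusted p = 0.297) at a mean of 13.5 CPM. Utp14b overlaps Acsl3 on the same strand over 13475 bases, so reads from the overlap cannot be assigned by strand, and Acsl3 was itself at 0.17 in the authors' deposited table. Utp3 at 0.12 and Nol7 at 0.15 also rose in the authors' deposited table. The deposited values of the remaining processome members ran from -0.04 for Nol6, a scaffold of the UtpC module, to 0.08 for Nol10. Between them lay Utp20 and Utp11 at -0.04 and -0.03, Utp23 at -0.002, Nop14 at 0.01 and Nop9 at 0.04 in that table. Large scaffolds of the processome are among those that did not pass: Utp20 has a coding length of 8367 bases and Nol6 of 3456.

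The cores of box H/ACA and box C/D snoRNPs had median log2 fold changes of 0.25 and 0.18, and 5 of their 7 genes rose. That is 71.4%, against 25.2% of all genes. Of the box H/ACA genes 3 rose by at least 0.2 and of the box C/D genes 0 did, together 42.9% against 12.0% of all genes. With a trend on GC content and transcript length subtracted the medians were 0.19 and 0.14. Box H/ACA particles convert uridines of rRNA to pseudouridine, and the same 4 proteins sit in telomerase. Of these 4 genes 3 rose. Nhp2 (chromosome 11, 51619735 to 51623714) had the largest rise of all members, 0.33 in the authors' deposited table (interval 0.25 to 0.41, adjusted p = 2.68e-14), which is 25.7%. Nop10 (chromosome 2, 112261926 to 112263269) followed at 0.28 (adjusted p = 3.76e-10) and Gar1 at 0.22 (adjusted p = 7.06e-07) in that table. Dkc1, which encodes dyskerin, the enzyme of the particle, was at 0.03 (interval -0.04 to 0.10, adjusted p = 0.559). The upper end of that interval lies below the lower ends for Nhp2, Nop10 and Gar1, which are 0.25, 0.20 and 0.14; the difference itself was not tested.

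Box C/D particles methylate ribose groups of rRNA. Nop56 rose by 0.20 (adjusted p = 4.68e-07) and Fbl, the methyltransferase fibrillarin, by 0.18 (adjusted p = 1.64e-05) in the authors' deposited table. Nop58, which pairs with Nop56 in the particle, was at 0.08 there and did not pass (adjusted p = 0.0787). Nop56 lies on chromosome 2 from 130274430 to 130279313, inside the stretch between 130000000 and 149000000 whose 66 measured genes had a median of 0.18. The 10 genes on each side of Nop56 had a median of 0.06. The bounds of the stretch were fixed with earlier results of these data known, so its raised median may follow in part from the choice. No other member lay on that stretch, on the lowered end of chromosome 14 or on the Y chromosome. Introns of snoRNP and nucleolar genes often hold snoRNA genes themselves. In the GENCODE annotation 4 of the 45 members contain 13 snoRNA genes on their own strand: Nop56 holds 5, Nop58 4, Ncl 3 and Dkc1 1. That is 8.89% of members against 2.33% of all 9722 placed genes. Of these 4 hosts 2 rose and 2 did not pass, with a median of 0.09 against 0.12 for the other members.

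Factors of the large subunit also rose. Of 8 members 6 were higher and 0 lower by the authors' deposited edgeR test. The shares are 75% and 0%, against 25.2% and 26.5% of all genes. At an unadjusted p under 0.05, 0 were lower too, where 28.7% of all genes were. Only 2 (25%) rose by at least 0.2, against 12.0% of all genes. With Bonferroni adjustment of the deposited edgeR p-values 1 (12.5%) rose, against 9.58% of all genes. Pes1, Bop1 and Wdr12 form the PeBoW complex, which is needed to cut the spacer ahead of 5.8S and 28S rRNA. All 3 rose, Bop1 by 0.22 (adjusted p = 4.19e-06), Pes1 by 0.17 (adjusted p = 2.25e-05) and Wdr12 by 0.10 (adjusted p = 0.0119) in the authors' deposited table. Nop16 was at 0.22 (adjusted p = 0.000275), Nol8 at 0.16 (adjusted p = 0.000329) and Nop2, a cytosine methyltransferase of 28S rRNA, at 0.11 (adjusted p = 0.0202) there. Nop2 no longer passed against genes of like expression (0.08, adjusted p = 0.0713). Nol9, the kinase that prepares the cut spacer for trimming, stood at -0.01 (adjusted p = 0.906) and Nol12 at 0.03 (adjusted p = 0.703) in the deposited table.

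Most genes of the RNA exosome ring and cap rose slightly. Of the 9 Exosc genes in the authors' deposited table, the count that rose was 6, or 66.7% against 25.2% of all genes, and the median was 0.12. At a size of at least 0.2 only Exosc8 rose, 11.1% against 12.0% of all genes. With Bonferroni adjustment of the deposited edgeR p-values 0 of 9 passed, where 9.58% of all genes were higher and 14.2% lower. At an unadjusted p under 0.05, 6 were higher (66.7%) and 1 lower (11.1%), against 28.0% and 28.7% of all genes. Of the ring, Exosc8 was at 0.20 (adjusted p = 4.75e-05), Exosc4 at 0.18 (adjusted p = 0.000379), Exosc7 at 0.16 (adjusted p = 0.00134) and Exosc9 at 0.11 (adjusted p = 0.0315), and Exosc5 at 0.09 did not pass (adjusted p = 0.131). Of the cap, which guides RNA into the ring, Exosc2 was at 0.16 (adjusted p = 0.0013), Exosc1 at 0.12 (adjusted p = 0.0159) and Exosc3 at 0.09 (adjusted p = 0.127). Exosc10, the nuclease of the nuclear and nucleolar exosome (chromosome 4, 148558429 to 148582401), stood at -0.08 in the deposited table (interval -0.15 to -0.01, adjusted p = 0.0544). It passed as lower with the median of genes of like expression subtracted, at -0.09 (adjusted p = 0.0217). With a trend on GC content and transcript length subtracted, Exosc1, Exosc7 and Exosc9 no longer passed, at 0.04, 0.08 and 0.06 with adjusted p of 0.494, 0.0992 and 0.272, which leaves 3 of 9 subunits, or 33.3% against 23.2% of all genes. With coding length in place of transcript length 5 of 9 passed, or 55.6% against 23.4% of all genes. Exosc4 shares 619 bases with Oplah on the opposite strand, which was at -0.61 in the authors' deposited table; the strand setting of the counting is not given in the sources used here.

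Nol4l (chromosome 2, 153407462 to 153529971) was the only member that fell, by 0.46 in the authors' deposited table (interval -0.62 to -0.30, adjusted p = 1.53e-07), to a level 27.3% lower. It was the member of lowest expression, at 6.24 CPM, where the authors' table holds genes down to 3.52 CPM.

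Genes of the same pathway with other names were also more often higher than lower. From a list of 102 further assembly factors, chosen by function but with earlier results of these data known, 96 were in the table. Of these 45 rose and 3 fell, 46.9% and 3.13% against 25.2% and 26.5% of all genes, with a median of 0.09, and 88 lay above 0. At a size of at least 0.2 only 10 rose, or 10.4%, which is no larger a share than the 12.0% of all genes. For the small subunit 21 of 39 (53.8%) rose and 0 fell (1 was lower at an unadjusted p under 0.05 by the deposited edgeR test), for the large subunit 20 of 47 (42.6%) rose and 1 fell, and among 11 snoRNP assembly factors 5 (45.5%) rose and 2 fell. The lowest p-values for the small subunit in the authors' deposited table were those of Wdr3 at 0.23, Pno1 at 0.23, Wdr36 at 0.20 and Aatf at 0.22. Wdr3 and Wdr36 belong to the UtpB module with Utp18 and Utp6. Pwp2 at 0.02 (adjusted p = 0.732) and Tbl3 at 0.02 (adjusted p = 0.629), of the same module and looked up after the values were seen, did not pass in that table.

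For the large subunit the authors' deposited table gave Ftsj3, an rRNA methyltransferase, at 0.35, Las1l at 0.23, Nsa2 at 0.21 and Nle1 at 0.27. Las1l is the nuclease that works with Nol9, which did not pass. The SUMO protease gene Senp3 fell by 0.15 (adjusted p = 9.24e-05) in that table. Among snoRNP assembly factors Rpap3 at 0.24, Znhit3 at 0.24, Nolc1 at 0.18 and Znhit6 at 0.17 rose in the deposited table. Nufip1, which helps to join box C/D proteins to their RNA, fell by 0.67 (adjusted p = 1.61e-67), and Pih1d1 by 0.10 (adjusted p = 0.036). Nufip1 lies on chromosome 14 within the stretch from 66084374 to its end, where 114 measured genes had a median of -0.66. The start of that stretch was set from these same fold changes, so a low median there follows in part from the choice. The 20 genes nearest to Nufip1 had a median of -0.67.

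Nucleases and cofactors of the exosome were divided. Of 26 listed the table held 22, and 7 rose and 5 fell, 31.8% and 22.7%, near the 25.2% and 26.5% of all genes, with a median of 0.01. In the authors' deposited table Dis3, the other nuclease of the nuclear exosome, fell by 0.48 (adjusted p = 7.81e-30). It too lies on the lowered stretch of chromosome 14, where its 20 nearest genes had a median of -0.70. Zfc3h1 and Rbm7, of the complexes that bring nuclear transcripts to the exosome, fell by 0.21 and 0.13, and Dis3l, the nuclease of the cytoplasmic exosome, by 0.14 in the deposited table. The nuclear poly(A)-binding protein gene Pabpn1 rose by 0.23, the exosome-associated Mphosph6 by 0.16, the cap-binding Ncbp1 by 0.12 and Nvl, which counts among large subunit factors too, by 0.10 in that table. Ncbp2, also cap-binding and looked up after the values were seen, fell by 0.13 (adjusted p = 0.0158) there.

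**Figure D3:**
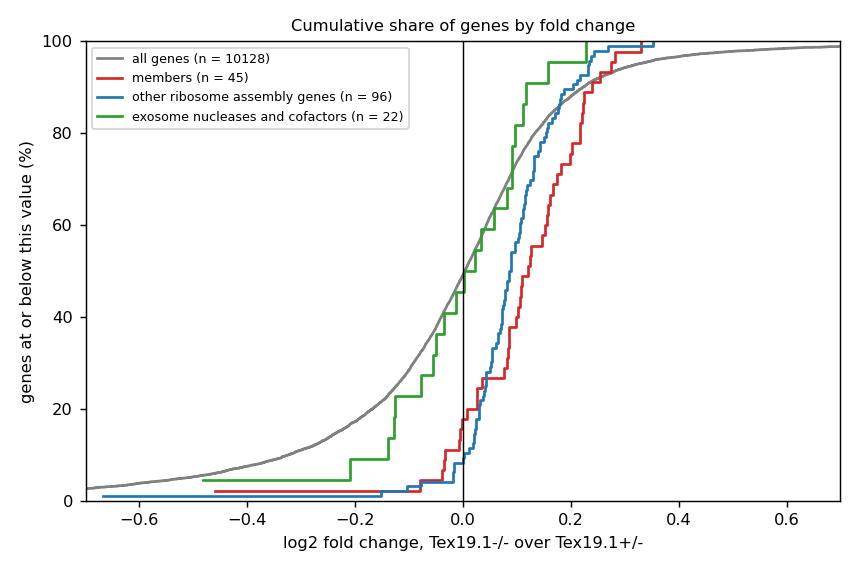
Cumulative percent of genes (y axis) at or below a deposited log2 fold change (x axis) for all 10128 genes, the 45 members, the 96 other ribosome assembly genes and the 22 exosome nucleases and cofactors. The members and the other assembly genes run to the right of all genes through the middle of the range, with medians of 0.12 and 0.09, while the exosome cofactors cross the curve of all genes near 0, with a median of 0.01.

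Short members stood higher than long ones. The 19 members with a coding length under 1000 bases had a median of 0.16 and 14 of them (73.7%) rose. For those of at least 2000 bases the median was 0.08 and 7 of 15 (46.7%) rose. Over all genes with a coding length the same classes had medians of 0.03 and -0.02, and 30.2% and 22.5% were higher. The members thus lay above genes of their own length at both ends. Across the 45 members the log2 fold change and the logarithm of the coding length had a Spearman rho of -0.36 and a Pearson r of -0.40; across all 9621 genes the values were -0.11 and -0.08. With transcript length, untranslated ends included, they were -0.51 and -0.49 across the members and -0.15 and -0.09 across all genes. These are descriptions across genes of the same 6 libraries, so the genes share whatever depth and RNA quality each library had. Neither was analysed here. With a trend on GC content and transcript length over all genes subtracted, 25 of the 45 members rose, where 23.2% of all genes did, and the median was 0.11.

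**Figure D4:**
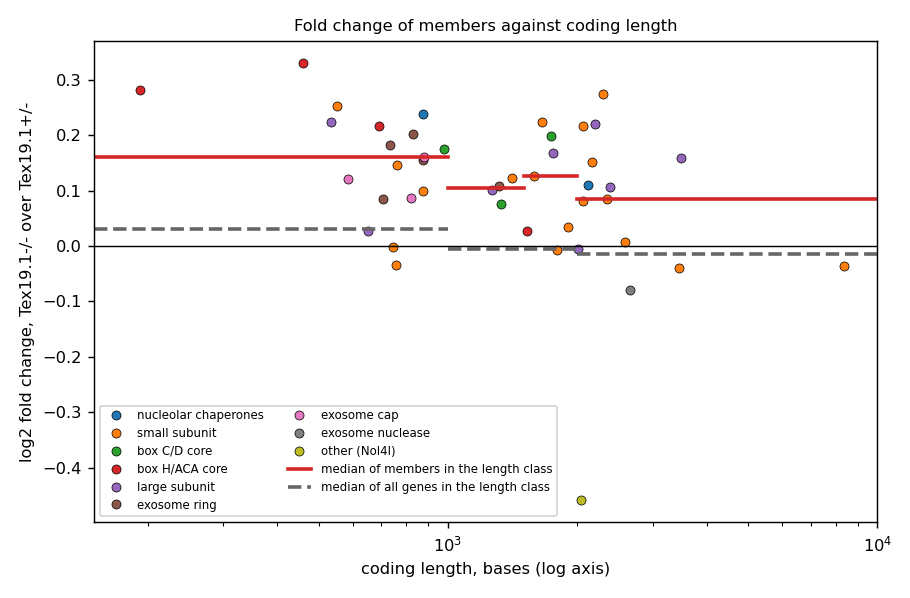
Deposited log2 fold change of the members (y axis) against coding length in bases (x axis, log scale), coloured by role. Red lines mark the members' median and grey dashed lines the median of all genes in 4 length classes; the red lines, from 0.08 to 0.16, lie above the grey ones, from -0.02 to 0.03.

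The members are spread over 17 chromosomes. On chromosome 11, which carries Tex19.1, 5 of 6 rose with a median of 0.20, where the 808 measured genes of that chromosome had a median of 0.07. All 4 members on chromosome 13 rose (median of the chromosome 0.02), and none of the 5 on chromosome 4 passed (median of the chromosome -0.01). Those 5 were Nol6, Exosc3, Utp11, Exosc10 and Nol9. These chromosomes were picked after the values were seen. Over all chromosomes 25.2% of genes were higher and 26.5% lower, and shares for single chromosomes are not given here. Of the 45 members 35 lay above the median of their 20 nearest genes. That local median was above 0 for 27 members. It ran from -0.15 for Exosc2 to 0.15 for Utp18 and stood at 0.13 for Nhp2.

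The promoters are shown because genes of this pathway are known to share binding motifs for growth-related factors close to their starts and because 28 of the 45 members rose. RefSeq windows (GRCm38.p6) from 250 bases before to 50 bases after the start were found for 36 of the 45 members. The E-box CACGTG, the palindrome bound by the Myc family, stood in a window of 9 of the 36, which is 25%, against 12.7% of the 7640 table genes with a window. An ETS-type motif, ACTTCCG or CGGAAGT on the printed strand, stood in 10 of the 36, or 27.8%, against 16.8%. The NRF1-type motif GCGCATGC, on either strand, stood in 2 of the 36, or 5.56%, against 6.99%. Of the 9 members with an E-box 6 rose, against 17 of the 27 without, and the medians were 0.11 and 0.12. Of the 10 with the ETS-type motif 7 rose, with a median of 0.14, against 16 of 26 and 0.12. Those differences were not tested, and a match is only a match of letters. The motifs do not overlap each other in the stretches shown. The 4 members that rose and have an E-box wholly before the start are Utp18 (chr11:93885767-93885846, minus strand, motif 20 bases before the start), Nol11 (chr11:107189382-107189461, minus strand, 43 bases), Nop2 (chr6:125131786-125131865, plus strand, 60 bases) and Imp4 (chr1:34439671-34439750, plus strand, 121 bases). Distances are from the RefSeq start; the GENCODE start is the same for Utp18 and Nol11 and lies 26 bases later for Nop2 and 22 later for Imp4. Each line gives 80 bases, 5′ to 3′ along the gene, with the E-box in capitals.
Utp18: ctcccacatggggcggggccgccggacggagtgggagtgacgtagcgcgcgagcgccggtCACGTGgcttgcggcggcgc
Nol11: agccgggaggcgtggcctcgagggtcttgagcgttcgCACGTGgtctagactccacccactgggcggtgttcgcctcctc
Nop2: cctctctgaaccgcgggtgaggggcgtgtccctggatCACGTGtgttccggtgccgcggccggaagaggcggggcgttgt
Imp4: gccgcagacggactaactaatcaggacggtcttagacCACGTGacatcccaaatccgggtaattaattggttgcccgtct

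Among members with the ETS-type motif wholly before both the RefSeq and the GENCODE start, the highest rises were those of Utp4 (chr8:106893560-106893639, plus strand, motif 20 bases before the RefSeq start) and Gar1 (chr3:129831398-129831477, minus strand, 44 bases). The GENCODE start of Utp4 lies 4 bases earlier, within the stretch shown. The capitals mark that motif. Utp4 holds another copy in lower case in the same stretch, 44 bases before the RefSeq start.
Utp4: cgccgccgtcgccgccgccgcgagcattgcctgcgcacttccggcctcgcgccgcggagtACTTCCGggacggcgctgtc
Gar1: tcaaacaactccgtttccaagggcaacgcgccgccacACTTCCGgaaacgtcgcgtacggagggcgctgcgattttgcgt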

How the data were processed

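RNA was extracted with TRIzol, and TruSeq Stranded mRNA libraries were sequenced in pairs on a HiSeq instrument, per the labels' protocols. Named in the submitters' processing notes are mm10 as the build, HTSeq 0.11.2, TopHat2 2.1.0, Trim Galore 0.4.1 and edgeR. Not given in the sources used here are the annotation, the strand setting, the filter on low counts and how the test was run. Each gene has, per the file headers, a fold change as log2, a mean level as log2 CPM, a p-value and its adjusted value. The deposited adjusted p-values differ from recomputed Benjamini-Hochberg values by at most 6.7e-05.

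The members, role classes and lists were chosen with earlier results of these data known. Calls use the authors' adjusted p under 0.05 over all genes. A count model per library had been planned; no library values were analysed here. The standard error was taken as the size of the fold change divided by the normal quantile of the deposited p-value, limited to 38, and intervals as 95% normal intervals; these are approximations. Positions, GC content, transcript and coding lengths come from GENCODE M21 on GRCm38, the assembly of mm10: 9587 genes matched by symbol, 135 by an older symbol, and 406 had no position. One transcript per gene was used (APPRIS principal, then best supported, then longest). The ranking of Npm1 and Ncl among the members is per kilobase of coding length, and all other levels are in CPM without scaling to length. The genes named are all members, Tex19.1, and up to 4 per direction and list with the smallest p among those that passed. Pathway genes beyond these were looked up after the values were seen, as said where they are named. Nop9 was moved to the small subunit class after the values were seen.

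Other settings tried were Bonferroni adjustment, 0.01 as the threshold, only genes of at least 16 CPM, a size of at least 0.2, subtraction of the median of 301 genes of like expression or of a lowess trend (span 0.3) on GC content and transcript length, and removal of the stretches of chromosomes 2, 14 and Y; a trend with coding length was added after seeing the data. Python 3.11.15, SciPy 1.17.1 and statsmodels 0.14.6 were used, and the functions were tested on simulated data.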

Additional observations from a re-analysis of the deposited data

How the results depend on the processing

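The count of members that rose was 28 as deposited, 25 to 28 under 16 CPM, expression, trend and chromosome alternatives and 23 at an adjusted p under 0.01, and in each of these every member called higher was also called in the deposited table. Those alternatives had 55.6% to 65.1% of the members higher, against 23.2% to 26.9% of all genes. At an adjusted p under 0.01 the shares were 51.1% and 19.5%. The count of members that rose was 11 (24.4%) with Bonferroni adjustment, against 9.58% of all genes. It was also 11 (24.4%) with a size of at least 0.2, against 12.0%. The members that fell numbered 0 among genes of at least 16 CPM, which leaves out Nol4l, where 24.8% of all such genes fell. Against genes of like expression 2 members (4.44%) fell, with Exosc10 added, where 26.6% of all genes did. The median of the members stayed between 0.11 and 0.12. Of the other ribosome assembly genes 14 (14.6%) rose and 1 (1.04%) fell with Bonferroni adjustment, against 9.58% and 14.2% of all genes. With a size of at least 0.2, 10 of them rose (10.4%, against 12.0% of all genes) and 1 fell (1.04%, against 17.2%). Of the exosome cofactors 3 rose and 3 fell at an adjusted p under 0.01, 13.6% each, against 19.5% and 21.8% of all genes. With Bonferroni adjustment 1 rose and 1 fell, 4.55% each, against 9.58% and 14.2%. With the size minimum 1 (4.55%) rose and 2 (9.09%) fell, against 12.0% and 17.2%. With the trend on coding length 4 (18.2%) rose, against 23.4%. Fewer genes can pass a stricter threshold by construction; the cause of the other shifts was not tested.

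Among members that did not pass, the sign changed for Dkc1 (-0.0023) and Nop14 (-0.0081) against genes of like expression, for Nop14 (-0.0058), Utp20 (0.0098) and Nol6 (0.0028) with the trend on transcript length, and for Utp20 (0.017) with the trend on coding length. No paired analysis was possible because the table analysed holds 1 comparison and no value per library; for the same reason leaving out single replicates was not run.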
